A study of Mus musculus with 14 samples.

Results

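The second week of SOX9 induction in epidermal stem cells is described here, as the difference between W1 and W2 of a time course of RNA-seq. The comparison rests on 4 of the 14 libraries of the series, the 2 replicates at W1 and the 2 replicates at W2, and covers the 13110 genes whose mean over the 10 libraries of the time course was at least 1 TPM (transcripts per 1000000, a level already corrected for transcript length). EpdSCs, which renew the epidermis between the hair follicles, were sorted from back skin of male CD1 mice that carried K14rtTA and TRE-myc-Sox9. The Krt14-driven rtTA is made in basal epithelial cells and, in the presence of doxycycline (DOX), switches on a MYC-tagged SOX9 there. DOX was given at P21 and continued in the feed, so the D0 mice were P21, the W1 mice P28, the W2 mice P35 and the W6 mice P63. The W12 cells came from newborn skin of the same genotype grafted onto Nude hosts. All groups carried both transgenes, and no RNA from age-matched mice without DOX was analysed here, so a week of SOX9 and a week of age cannot be told apart between W1 and W2.

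SOX9 is an HMG-box transcription factor that marks the stem cells and outer root sheath (ORS) of the hair follicle and is absent from normal interfollicular epidermis. Forced into epidermal cells, it can open closed chromatin and turn on hair follicle genes, and it is made continuously in basal cell carcinoma. The question of the comparison was which transcripts moved between the first and the second week of SOX9, and which had already reached their level at W1.

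Few genes differed. At an adjusted P under 0.05 in limma (Benjamini-Hochberg), 15 of 13110 genes (0.114%) differed between W1 and W2, 6 of them higher (0.0458%) and 9 lower (0.0686%) at W2. In contrast, W1 differed from D0 in 1296 genes (9.89%) and W6 from W2 in 2137 genes (16.3%) in the same fit. Every called gene moved by at least 1.15 on the log2(TPM + 1) scale. In bulk libraries, fewer cells of a type and less RNA per cell cannot be told apart, which holds for every difference given here. Of the 13110 genes, 1900 (14.5%) had an unadjusted P under 0.05, with 6.63% of genes higher and 7.86% lower at W2. The W1 and W2 libraries did not overlap in 8038 genes (61.3%), 27.6% with both W2 libraries above and 33.7% with both below, so a gene whose libraries did not overlap was the usual case. The list of 15 genes rested on the W1, W2 and W12 libraries, while all 15 passed without either D0 or either W6 library. The count then grew, to 75 genes without either D0 library and to 56 and 83 without W6 replicates 1 and 2. Without W1 replicate 1, W2 replicate 1 or W2 replicate 2 no gene passed the threshold, without W1 replicate 2 5 genes passed, and 1 of these, Gm11966, was among the 15. Without the 2 grafted W12 libraries 6 of the 15 passed (Gm11966, Gm8399, Mfsd2a, Gphb5, Ndufs5-ps and Trim47), and the other 9 did not.

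For 9292 genes (70.9%) the data placed a bound on the change. In these genes, called steady below, the 95% interval of W2 minus W1 lay within 1 on the log2 scale, that is within 2-fold either way. A further 3803 genes were neither called nor steady, and for these the fit over 10 libraries did not settle whether the level moved. In a fit of the 4 W1 and W2 libraries alone 10692 genes were steady, and with a pseudocount of 0.1 it was 7649. Over all genes the median change was −0.03 and the median standard error 0.23 on the log2 scale.

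**Figure D1:**
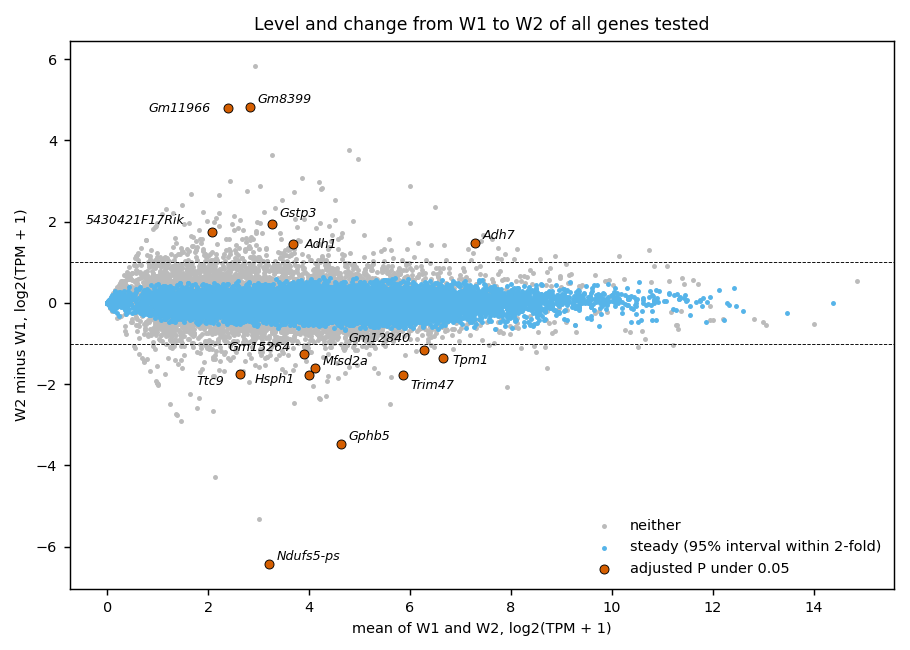
Each point is 1 of the 13110 genes tested, with its mean level over the W1 and W2 libraries on the horizontal axis and its fitted W2 minus W1 difference on the vertical axis, both on the log2(TPM + 1) scale, and dashed lines at a 2-fold change either way. The 15 called genes (orange, named) lie outside the dashed lines, the 9292 steady genes (blue) lie between them, and grey points are neither, among them several with larger fitted differences than most called genes.

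The W1 and W2 libraries were closer to each other than the replicates of D0 or of W6. The SD over genes of the log2 difference was 0.402 between the W1 replicates and 0.344 between the W2 replicates, against 0.488 to 0.575 in the 4 pairings of a W1 with a W2 library. Genes at least 2-fold apart numbered 251 and 215 within the timepoints and 513 to 778 across them. The SD was 0.597 between the D0 replicates and 0.635 between the W6 replicates, and these libraries share the estimate of the spread in the fit.

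The transgene entry MYC-SOX9 stood at 3387 and 3414 TPM at W1 and at 1892 and 1469 TPM at W2, after 89.6 and 45.6 TPM at D0. Krt14 and Krt5, the keratins of the basal layer, were among the most abundant transcripts of all 4 libraries. Transcripts of cells that the sort was meant to remove were scarce: the summed TPM of 16 immune markers was 38.3 to 58.5 in the W1 and W2 libraries, that of 7 endothelial markers 1.27 to 2.40, and that of 8 fibroblast markers 0.572 and 0.567 at W1 and 2.76 and 2.29 at W2. Of melanocyte markers, 8 summed to 2.78 and 3.38 TPM at W1 and 7.29 and 6.44 TPM at W2, and in Pmel and Dct, genes of the melanosome, both W2 libraries lay above both W1 libraries. Merkel cell markers (5 genes) summed to 0.461 and 0.292 TPM at W1 and 5.44 and 0.980 TPM at W2. The part of such cells in the differences given here was not tested. The 4 libraries had the Y-linked Ddx3y at 22.1 to 32.7 TPM and Xist at 0, as male mice would, whereas the library labelled D0 replicate 2 had Ddx3y at 0.0279 TPM and Xist at 4.61 TPM. The W12 grafts had both, Ddx3y at 11 and 12.9 TPM and Xist at 5.51 and 3.50 TPM, and their endothelial markers summed to 86 and 205 TPM. The study's methods give the Nude hosts of the grafts as female, and the part of host cells in these values was not tested. D0 replicate 2 and the 2 W12 libraries do not enter the W1 and W2 means. They bear on the comparison through the spread and through the mean that decided which genes were tested.

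Among the genes that fell at W2, Mfsd2a, Trim47 and Ttc9 continued a decline that had begun before W1. Mfsd2a, a transporter of lysophosphatidylcholine that carries omega-3 fatty acids into cells, lies at chr4:122946850-122961188 on the minus strand of GRCm38. It was at 118 and 129 TPM at D0, at 29.3 and 29.6 TPM in the W1 libraries and at 8.61 and 9.39 TPM in the W2 libraries. Both replicates sat together at each timepoint, and the W2 pair lay far under the W1 pair. The change was −1.61 ± 0.14 (SE, n = 2 per timepoint; limma, Benjamini-Hochberg adjusted P = 0.00848). Later levels were higher again, 17.6 and 20.2 TPM at W6 and 26.9 and 27.5 TPM in the grafts.

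Trim47 (chr11:116105752-116127210, minus strand), a RING-finger E3 ubiquitin ligase of the tripartite motif family, was at 227 and 298 TPM at D0, 102 and 111 TPM at W1 and 32.8 and 28.7 TPM at W2. The 3 timepoints formed separate steps, each below the one before. The W2 minus W1 difference was −1.76 ± 0.20 (limma, adjusted P = 0.0259), and the W6 libraries, at 34.2 and 41.8 TPM, were still near the W2 level. Trim65 overlaps Trim47 on the same strand, and 6.58% of the 50-base windows of Trim47 occur in it. Ttc9 (chr12:81631249-81667557, plus strand), a tetratricopeptide repeat protein, went from 9.89 and 11 TPM at W1 to 2.75 and 2.04 TPM at W2, a change of −1.76 ± 0.22 (limma, adjusted P = 0.0341). It had been at 20.7 and 29.2 TPM at D0 and fell under 1 TPM at W6, at 0.726 and 0.562 TPM.

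The long intergenic RNA Gm12840 (chr4:117700188-117700923, plus strand) followed the same downward course to W2. Its libraries were at 451 and 524 TPM at D0, 120.2 and 110.0 TPM at W1 and 52.6 and 50.2 TPM at W2, with a change of −1.15 ± 0.15 from W1 to W2 (limma, adjusted P = 0.0401). Its W6 libraries were higher, at 125 and 152 TPM. Of its windows of 50 bases, 45.9% also occur in other annotated transcripts, most often in Gm20186, a second intergenic RNA on another chromosome. Gm20186 was at 285 and 258 TPM at W1 and 140.1 and 123 TPM at W2 and missed the threshold (limma, adjusted P = 0.0727), and reads that fit both had to be divided between them.

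Gphb5 and Tpm1 were highest at W1 itself and lower on either side. Gphb5 (chr12:75411722-75416781, minus strand) encodes a beta subunit of the glycoprotein hormone family, which pairs with GPHA2 to form thyrostimulin. It was listed at 0 in both D0 libraries, stood at 71.2 and 93.6 TPM at W1 and was down to 7.92 and 5.23 TPM at W2. The W1 pair stood above all other libraries of the time course, and the W6 pair, at 0.398 and 0.0234 TPM, was under 1 TPM. The W2 minus W1 difference of −3.47 ± 0.35 (limma, adjusted P = 0.0172) was the largest fall of any called protein-coding gene.

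Tpm1 (chr9:67022590-67049406, minus strand) encodes tropomyosin 1, which binds along actin filaments. Its levels were 82.4 and 73.1 TPM at D0, 141 and 184 TPM at W1, 66 and 58.3 TPM at W2, then 98.6 and 88.8 TPM at W6. The W1 libraries were the highest pair, and the W2 libraries the lowest. The difference from W1 to W2 was −1.37 ± 0.17 (limma, adjusted P = 0.0338). In a fit of the 4 W1 and W2 libraries alone, 80 genes (0.610%) passed the threshold, 43 higher (0.328%) and 37 lower (0.282%), and Tpm1 was the 1 of the 15 called genes not among them. The other tropomyosins did not pass: Tpm2 and Tpm3 were steady, with changes of −0.23 and 0.09, and Tpm4 had a change of −0.56 (limma, adjusted P = 0.131).

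Hsph1 (chr5:149614287-149636376, minus strand), a large cytosolic HSP110 chaperone that assists HSP70 in refolding proteins, fell at W2 after a week in which its change had missed the threshold. It was at 38.5 and 38.3 TPM at D0, then at 28.2 and 29.3 TPM at W1. At W2 it stood at 7.24 and 8.02 TPM, the lowest pair of the time course. The change was −1.78 ± 0.23 (limma, adjusted P = 0.0401), and the W6 libraries were higher, at 13.9 and 24 TPM. Of the 12 heat-shock genes tested, Hsph1 alone passed the threshold, 2 had a fitted change above 0, against 45.9% of all genes, and 7 were steady, against 70.9%. The most abundant members, Hspb1, Hsp90ab1 and Hspa8, had changes of −0.20, −0.16 and −0.13, none past the threshold.

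A pair of neighbouring alcohol dehydrogenase genes rose together at W2. Adh7, a class IV enzyme that oxidizes retinol, lies at chr3:138217760-138233382 on the plus strand of GRCm38, and Adh1, a class I enzyme, begins 27608 bases after its end, at chr3:138260991-138290698 on the same strand. The 250 bases upstream of their start sites in RefSeq (GRCm38.p6, plus strand, chr3:138217523-138217772 for Adh7 and chr3:138277335-138277584 for Adh1) are shown because the pair moved in the same direction. Capitals mark 4 motifs searched on both strands: AACAAT for SOX factors, TGANTCA for AP-1, GAANNTTC for inverted heat-shock units and CACGTG for E-box factors.
Adh7: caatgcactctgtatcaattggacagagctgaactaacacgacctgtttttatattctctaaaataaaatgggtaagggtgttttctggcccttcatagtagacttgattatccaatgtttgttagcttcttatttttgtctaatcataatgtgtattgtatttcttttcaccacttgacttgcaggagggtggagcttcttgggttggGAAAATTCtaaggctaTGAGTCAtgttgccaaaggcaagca
Adh1: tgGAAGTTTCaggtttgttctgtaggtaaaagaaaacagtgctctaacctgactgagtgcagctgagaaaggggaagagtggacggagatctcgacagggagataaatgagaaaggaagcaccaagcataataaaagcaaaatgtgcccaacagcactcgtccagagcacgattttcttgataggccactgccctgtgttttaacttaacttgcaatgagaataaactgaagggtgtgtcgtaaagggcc
The Adh7 window holds 1 TGANTCA and 1 GAANNTTC, and the Adh1 window 1 GAANNTTC. Among 32851 promoter windows of the same length, 6.75% hold TGANTCA, 6.69% GAANNTTC, 9.42% AACAAT and 6.02% CACGTG. Neither Adh window holds AACAAT or CACGTG. Of the 7 other called genes with an entry, Gphb5 has 1 TGANTCA in its window, Hsph1 has 1 CACGTG upstream of the second of its 2 start sites, and Mfsd2a, Trim47, Tpm1, Ttc9 and Gstp3 have none of the 4 motifs. RefSeq places the starts of Adh1 and Trim47 well inside their GENCODE genes rather than at the 5′ end.

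Adh7 had the highest mean of the called genes over the W1 and W2 libraries, though not at W1 alone. It was at 40.0 and 28.9 TPM at D0, 96.8 and 89.6 TPM at W1 and 243 and 281 TPM at W2. The W2 pair was the highest of the time course, above 109 and 142 TPM at W6 and 62.8 and 54.3 TPM in the grafts. The change from W1 to W2 was 1.48 ± 0.20 (limma, adjusted P = 0.0401).

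Adh1 was at 9.55 and 8.09 TPM at D0 and 6.82 and 6.80 TPM at W1, and reached 21.5 and 19.2 TPM at W2. Its W2 pair too was the highest of all, and its W6 pair, at 4.21 and 4.76 TPM, lay under the D0 pair. The change was 1.45 ± 0.19 (limma, adjusted P = 0.0401). Antisense RNAs overlap both genes, 0610031O16Rik at Adh7 and Gm16559 at Adh1. 0610031O16Rik averaged 2.38 TPM over the W1 and W2 libraries, and Gm16559 was too low to be tested. Adh5, the ubiquitous class III enzyme, was steady, at 85.5 and 75.7 TPM and 93.8 and 90.5 TPM.

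Gstp3 and the intergenic RNA 5430421F17Rik rose at W2 on the way to a higher level at W6. Gstp3 (chr19:4057477-4059569, minus strand), a glutathione S-transferase of the pi class, was at 1.25 and 0.921 TPM at D0, 3.66 and 4.16 TPM at W1, 16.1 and 19.7 TPM at W2, then 51.2 and 30.1 TPM at W6. No 2 of these 4 timepoints overlapped. The W2 minus W1 difference was 1.94 ± 0.25 (limma, adjusted P = 0.0401). Its close relative Gstp1 was steady at 298 and 302 TPM and 316 and 321 TPM, and no window of 50 bases in Gstp3 occurs in another annotated gene.

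5430421F17Rik was under 0.12 TPM in both D0 libraries, then at 1.33 and 1.26 TPM at W1, 6.70 and 6.82 TPM at W2, then 15.3 and 12 TPM at W6. The replicates differed little at each of these timepoints, and each pair lay above the one before. The change from W1 to W2 was 1.76 ± 0.20 (limma, adjusted P = 0.0271), and the grafts were back at 2.83 and 3.39 TPM. It lies at chr8:25302650-25306270 on the minus strand, and none of its windows occurs elsewhere.

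The 4 remaining called features were pseudogenes, which make up 4.06% of the genes tested. All of them share sequence with an expressed gene, so the quantification had to divide reads that fit both. Gm11966 (chr11:5818497-5818583, minus strand) is a processed pseudogene of 87 bases, each of which matches Atp5j, a subunit of ATP synthase. Ndufs5-ps (chr16:42955631-42955949, plus strand) lies inside Zbtb20 and is 99.4% identical to Ndufs5, a subunit of complex I, and Gm15264 (chr3:94720023-94758116, minus strand) is an unprocessed pseudogene 98.6% identical to Tuft1. Stretches of 60 bases inside the coding part are shown because the reads that separate a copy from its parent must cover such differences, and capitals mark the bases that differ.
Gm11966: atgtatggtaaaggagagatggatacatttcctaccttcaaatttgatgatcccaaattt
Atp5j: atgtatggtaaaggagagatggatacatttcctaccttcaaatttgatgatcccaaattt
Ndufs5-ps: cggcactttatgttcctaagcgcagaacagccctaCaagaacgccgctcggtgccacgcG
Ndufs5: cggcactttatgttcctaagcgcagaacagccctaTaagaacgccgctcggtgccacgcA
Gm15264: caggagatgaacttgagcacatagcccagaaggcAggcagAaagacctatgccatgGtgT
Tuft1: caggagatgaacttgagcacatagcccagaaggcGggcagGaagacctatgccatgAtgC
The Gm11966 and Atp5j stretches do not differ at all, those of Ndufs5-ps and Ndufs5 differ at 2 bases, and those of Gm15264 and Tuft1 at 4. The share of 50-base windows that also occur in another annotated gene was 100% for Gm11966, 72.6% for Ndufs5-ps and 50.3% for Gm15264. For Gm8399 (chr13:81064684-81065800, plus strand), a processed copy of the cytoplasmic actin gene Actg1, it was 78.5%, over 20 other genes.

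Gm11966 was listed at 0 in both D0 and both W1 libraries and stood at 25.3 and 28.2 TPM at W2 (limma, adjusted P = 0.00531). Atp5j itself was at 647 and 669 TPM at W1 and 710.0 and 716 TPM at W2 and was steady. Ndufs5-ps went the other way, at 96 and 74.2 TPM at W1, listed at 0 in both W2 libraries and back at 106 and 145 TPM at W6 (limma, adjusted P = 0.0259). Ndufs5 was at 277 and 304 TPM and 353 and 370.5 TPM and was steady. Gm8399 went from 0.296 and 0.372 TPM at W1 to 38.1 and 35.5 TPM at W2, having been at 72.9 and 80.5 TPM at D0 (limma, adjusted P = 0.00848). Actg1 was at 3198 and 2781 TPM at W1 and 2200.2 and 1885 TPM at W2, with a change in the other direction that missed the threshold (−0.55, adjusted P = 0.385). The parents Atp5j, Ndufs5 and Actg1 thus stood above their copies and did not pass the test.

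Gm15264 and its parent had changes of the same sign. Gm15264 was at 25.4 and 22.8 TPM at D0, 21.2 and 23.1 TPM at W1 and 8.47 and 8.75 TPM at W2, with a change of −1.27 ± 0.15 (limma, adjusted P = 0.0338). Tuft1, which encodes tuftelin, was at 56.9 and 69.3 TPM, 47.8 and 61.6 TPM and 25.7 and 26.2 TPM at the same timepoints, a change of −1.04 ± 0.18 that missed the threshold (limma, adjusted P = 0.0727). For both features the W1 libraries were near or overlapped those of D0, and the W2 libraries were near the W6 level.

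**Figure D2:**
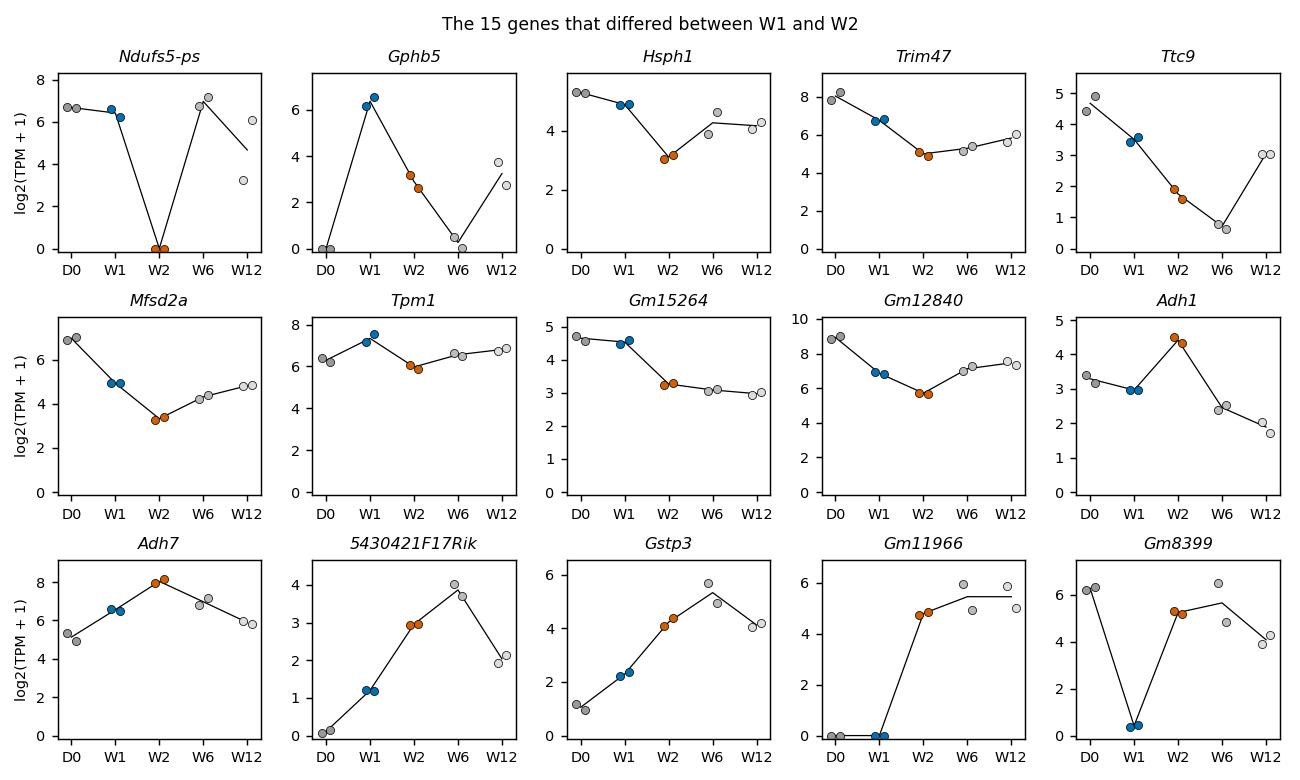
Levels of the 15 called genes in all 10 libraries, 1 panel per gene, ordered from the largest fall to the largest rise at W2. The vertical axes give log2(TPM + 1) on a scale of their own, points are single libraries (2 per timepoint, offset sideways), and lines join the timepoint means with the timepoints spaced evenly. Mfsd2a, Trim47, Ttc9 and Gm12840 step down from D0 through W1 to W2, Gphb5 and Tpm1 peak at W1, Adh1 and Adh7 peak at W2, and Gm11966, Gm8399 and Ndufs5-ps move between under 1 TPM and over 20 TPM from W1 to W2.

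For most called genes D0 and W6 differed too. W6 minus D0 shares no library with W2 minus W1, but both use the same estimate of each gene's spread, so a gene with a small spread is favoured in both. Of the 15 called genes, 11 also differed between W6 and D0 (32.4% of all genes tested did), and 10 of these 11 had the same direction as from W1 to W2. The exception was Adh1, at −0.84 from D0 to W6 (limma, adjusted P = 0.0116). Gphb5, Tpm1, Gm8399 and Ndufs5-ps had no called difference between D0 and W6.

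Below the threshold, the largest fitted changes belonged mostly to copies of other genes. Among genes with an unadjusted P under 0.05 whose libraries did not overlap, the 5 with the lowest fitted change were Tpm3-rs7, Gm7367, Rpl30-ps9, Capza1-ps1 and Rbx1-ps, and the 5 with the highest were the U3 small nucleolar RNA entry ENSMUSG00000105025.1, Rps24-ps3, Tmsb15b1, Krt42 and Dbp. In 8 of these 10, more than 50% of the 50-base windows occur in another annotated gene. Tpm3-rs7, a copy of Tpm3, was at 60.5 and 40.8 TPM at W1 and 0.258 and 0.279 TPM at W2, and Tmsb15b1, a thymosin gene, at 2.02 and 1.46 TPM and 27.9 and 38.5 TPM. The other two were Krt42, a type I keratin, and Dbp, a clock-controlled transcription factor. Krt42 was at 0.628 and 1.26 TPM at W1 and 16.4 and 12.3 TPM at W2, before 106 and 354 TPM at W6, with a change of 2.99 ± 0.48 (limma, adjusted P = 0.0727).

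Neither SOX9 entry passed the threshold. MYC-SOX9 had a W2 minus W1 difference of −1.03 ± 0.32 (limma, adjusted P = 0.202), with both W2 libraries under both W1 libraries. The endogenous Sox9 entry was at 4.02 and 2.71 TPM at W1 and 11.4 and 9.68 TPM at W2, where D0 had 11.5 and 9.47 TPM. Its change was 1.41 ± 0.26 (limma, adjusted P = 0.0828), and the Sox9 entry was lowest at W1, where the transgene entry was highest. The coding sequence is common to the transgene and Sox9, so reads from it had to be divided between the entries. Of the 9 SOX genes tested, none passed the threshold. By unadjusted P under 0.05, 3 (Sox9, Sox4 and Sox15) stood higher at W2, against 6.63% of all genes, and 1 (Sox6) lower, against 7.86%. Sox4 and Sox15 had changes of 0.87 and 0.84, and Sox6 one of −1.54.

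Genes of mitosis and of S phase had fitted changes above 0 almost without exception, and no single gene passed the threshold. Of 35 genes of mitosis and G2/M, 34 had a fitted change above 0, against 45.9% of all genes tested, and their median change was 0.51 against −0.03 over all genes. In 15 of them the unadjusted P was under 0.05 with the higher level at W2, against 6.63% of all genes, and 14 were steady. These 15 were Cenpa, Cdc20, Pttg1, Birc5, Ccnb1, Racgap1, Ccnb2, Kif23, Aurkb, Kif20a, Kif2c, Bub1b, Cdc25c, Ndc80 and Bub1, which serve the spindle, the centromere, the mitotic kinases and their removal. In 30 of the 35, both W2 libraries lay above both W1 libraries, against 27.6% of all genes. Cenpa, the centromeric histone variant, was at 82.5 and 62.8 TPM at W1 and 139 and 164 TPM at W2, a change of 1.06 ± 0.29 (limma, adjusted P = 0.172). Cdc25c, the phosphatase that activates CDK1 at the entry to mitosis, had a change of 1.02 ± 0.16 (limma, adjusted P = 0.071), while Cks2 and Ube2c, the most abundant members beside Cenpa, were steady at 0.24 and 0.20.

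Genes of DNA replication and S phase had smaller fitted changes of the same sign. Of 34 tested, 33 had a fitted change above 0 with a median of 0.38, 3 (Mcm7, Tk1 and Rfc3) had an unadjusted P under 0.05, against 6.63% of all genes higher, and 14 were steady, against 70.9%. Pcna, the sliding clamp of DNA polymerase, was at 89.3 and 73 TPM at W1 and 111 and 96.5 TPM at W2, and Tk1, a thymidine kinase of S phase, at 37.4 and 35.3 TPM and 62.8 and 66.9 TPM. The summed TPM of the mitotic genes was 1231 and 1024 at W1 and 1578 and 1686 at W2. The D0 libraries were at 2541 and 1589.6, and the W6 libraries, at 2705 and 2799.8, were above those of W2. For the S-phase genes the sums were 1309.8 and 656 at D0, 1062 and 990.4 at W1, 1416 and 1275 at W2, then 2208 and 2526 at W6. Of 12 genes in a further group of cyclins, CDKs and CDK inhibitors, 8 had a fitted change above 0, against 45.9% of all genes, with a median of 0.10. The group summed to 2439.8 and 2621 TPM at W1 and 2323 and 2307 TPM at W2, where it was led by Ccnd2, steady at −0.04. By unadjusted P under 0.05, 1 gene, Cdkn1c, stood higher at W2 (0.87) and 1, Cdkn1a, lower (−0.75). Over all genes 6.63% were higher and 7.86% lower by this measure, so these counts are near the usual share.

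**Figure D3:**
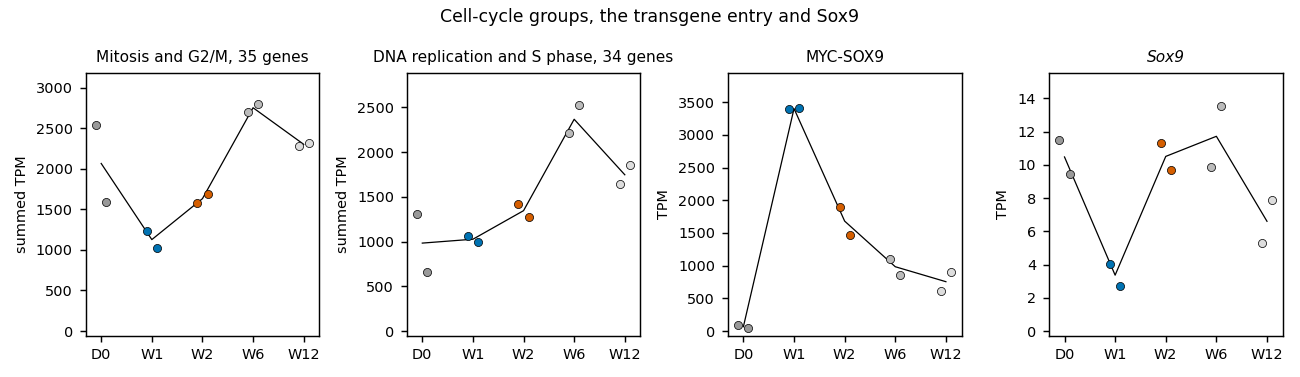
Summed TPM of the 35 mitotic and 34 S-phase genes, and TPM of the transgene entry MYC-SOX9 and of Sox9, in the 10 libraries, on linear axes. Points are libraries (2 per timepoint) and lines join the timepoint means. Both W2 libraries lie above both W1 libraries for the cell-cycle sums and for Sox9, and below them for MYC-SOX9, which peaks at W1 at 3387 and 3414 TPM.

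Of the hair follicle groups, that of the ORS had the most genes above 0. Of 21 genes of the ORS and its stem cells, 18 had a fitted change above 0 at W2 (median 0.40), against 45.9% of all genes. In 6 (Runx1, Tbx1, Foxc1, Vdr, Nfib and Lhx2) the unadjusted P was under 0.05 with the higher level at W2, against 6.63% of all genes. None passed the threshold. Krt17 and Krt79, keratins of the follicle, were at 3163 and 3458 and at 2045 and 2648 TPM at W1, with changes of −0.31 and 0.47 from W1 to W2. Runx1, a transcription factor of hair follicle stem cells, was at 6.98 and 8.04 TPM at D0, 32.1 and 29 TPM at W1 and 74 and 53.8 TPM at W2. Each pair of Runx1 libraries lay above the one before, and the change of 1.02 ± 0.21 missed the threshold (limma, adjusted P = 0.102). Of 7 hair bud and placode genes, 3 had a fitted change above 0 (4 under median-ratio scaling), against 45.9% of all genes. By unadjusted P under 0.05, 2 (Wnt10a and Bmp2) stood lower at W2, with changes of −0.73 and −1.21, against 7.86% of all genes. Of 4 genes of the hair matrix and shaft, 2 had a fitted change above 0, against 45.9% of all genes. Sostdc1, a BMP and WNT antagonist of the hair bud, was steady at 1409.7 and 1456 TPM and 1692 and 1205 TPM.

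Of 21 WNT genes tested, 7 had an unadjusted P under 0.05, against 14.5% of all genes, and none passed the threshold. Among these 7, the ligands Wnt7b, Wnt10a and Wnt6 had changes of −1.16, −0.73 and −0.64, and the receptors Fzd1, Fzd7 and Fzd6 changes of 0.64, 0.54 and 0.51. Notum, a secreted enzyme that inactivates WNT ligands, had a change of 1.89. Ctnnb1, which encodes β-catenin, was steady at 248 and 268 TPM and 269 and 247 TPM. In the BMP and TGFβ group, Bmp2 was at 49.3 and 56.2 TPM at D0, 12.7 and 10.8 TPM at W1 and 5.28 and 3.77 TPM at W2. Its change of −1.21 ± 0.20 came near the threshold (limma, adjusted P = 0.0727), Bmp4 had one of −1.79, Bmp7 one of 0.54 and the BMP target Id1 one of 0.87, and 13 of the 19 genes of the group were steady. In the NOTCH group, 8 of 11 genes were steady, and both shares are close to the 70.9% of all genes.

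Of 16 NRF2 and antioxidant genes, 12 had a fitted change above 0, against 45.9% of all genes, and none passed the threshold. By unadjusted P under 0.05, 5 stood higher at W2, against 6.63% of all genes, and none lower: Gpx2, Gstm1, Nqo1, Gsta4 and Gclm. Gpx2, an epithelial glutathione peroxidase, was under 1 TPM in both D0 libraries, at 38.2 and 39.2 TPM at W1 and at 189.9 and 214 TPM at W2, with a change of 2.35 ± 0.63 (limma, adjusted P = 0.157). Its W6 libraries were at 1349 and 231 TPM. In the fit of the 4 W1 and W2 libraries alone, Gpx2 and Gstm1 passed the threshold (limma, adjusted P = 0.00876 and 0.0484). Nqo1, a quinone reductase, was at 26 and 18.5 TPM at W1 and 46.7 and 51.1 TPM at W2. The most abundant members, Prdx1, Gpx1 and Gpx4, were steady. Of 21 genes of cholesterol and fatty acid synthesis, 5 (Scd1, Scd2, Insig1, Dhcr7 and Lss) were higher and 1 (Acly) lower at W2 by unadjusted P, against 6.63% and 7.86% of all genes, 11 were steady, against 70.9%, and none passed the threshold. The 9 sebaceous markers summed to 225 and 222 TPM at W1 and 452 and 433 TPM at W2, mostly through Mgst1, at 136 and 129 TPM and 338 and 344 TPM. Of the 4 that were tested, Mgst1 and Scd1 had changes of 1.36 and 1.20, and Fasn and Plin2 changes of −0.49 and −0.16. Whether sebocytes in the sort took part in these values was not tested.

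The circadian clock genes had changes of both signs. Of 16 tested, 6 had an unadjusted P under 0.05, against 14.5% of all genes: Dbp, Tef and Per3 with higher levels at W2 and Arntl, Cry1 and Npas2 with lower levels. None passed the threshold. Dbp was at 1.62 and 1.61 TPM at W1 and 17.7 and 15.5 TPM at W2, and Arntl, the partner of CLOCK, at 35.2 and 37.7 TPM and 28.3 and 27.1 TPM. The replicates of these genes sat together at W1 and at W2. The clock repressor Nr1d1 was at 10.5 and 10.2 TPM at W1 and 49.8 and 41.2 TPM at W2, whereas its D0 replicates were at 4.45 and 80.1 TPM. In the fit of the 4 W1 and W2 libraries alone, Dbp, Tef and Nr1d1 passed the threshold (limma, adjusted P = 0.0249, 0.0394 and 0.0344). The time of day at which the skins were taken was not given in the sources used here, and its part in these values was not tested. Of 13 p53 targets, 4 (Cdkn1a, Phlda3, Sesn2 and Aen) were lower at W2 by unadjusted P, against 7.86% of all genes. Cdkn1a, the CDK inhibitor p21, was at 971 and 1539.6 TPM at D0, 559 and 604 TPM at W1 and 330.2 and 361 TPM at W2, a change of −0.75 ± 0.28 (limma, adjusted P = 0.284).

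By their summed level, immediate early genes differed more between replicates than between weeks. The 19 genes of the AP-1 and immediate early group summed to 10516 and 6481 TPM in W1 replicates 1 and 2 and to 14289 and 7681 TPM in W2 replicates 1 and 2, against 35821 and 59327 TPM at D0. Fos was at 2036 and 1054 TPM at W1 and 3005 and 1449 TPM at W2. Of the 19, 14 had a fitted change above 0, against 45.9% of all genes, with a median of 0.35. None had an unadjusted P under 0.05, against 14.5% of all genes. Genes of MHC class I and antigen presentation spread likewise, with 10 genes summed to 10647 and 7715 TPM at W1 and 13145 and 8582 TPM at W2.

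The steady genes took in most of the basic machinery of the cell. Of 65 cytosolic ribosomal protein genes, 62 were steady, as were 60 of 61 genes of oxidative phosphorylation and 15 of 16 housekeeping genes, against 70.9% of all genes tested. Within the 2-fold margin most of these genes still leaned upward: 51 of the ribosomal, 55 of the oxidative phosphorylation and 13 of the housekeeping genes had a fitted change above 0, against 45.9% of all genes, with medians of 0.11, 0.16 and 0.12. Under quantile normalization the ribosomal genes had 43 above 0 and a median of 0.05. The 3 other ribosomal genes were Rpl12, Rpl30 and Rps2, and Rps2 had a change of −2.08 ± 1.38. Atp5b, the catalytic subunit of ATP synthase, was at 1611 and 1522 TPM at W1 and 1833 and 1979 TPM at W2, and Actb at 5569 and 4461 TPM and 4949.9 and 4998 TPM. Of 21 genes of the SWI/SNF chromatin remodellers 20 were steady, as were 20 of 22 Polycomb and HDAC genes. Among 14 genes of MLL/COMPASS and p300, which modify histones at enhancers and promoters, 10 were steady, a share close to that of all genes, and 12 had a fitted change below 0 (median −0.29). Of the SWI/SNF genes 8 had a fitted change above 0, with a group median of −0.08, and the most abundant, Bcl7c, Smarcd2 and Smarcb1, had changes of −0.20, 0.10 and 0.05.

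**Figure D4:**
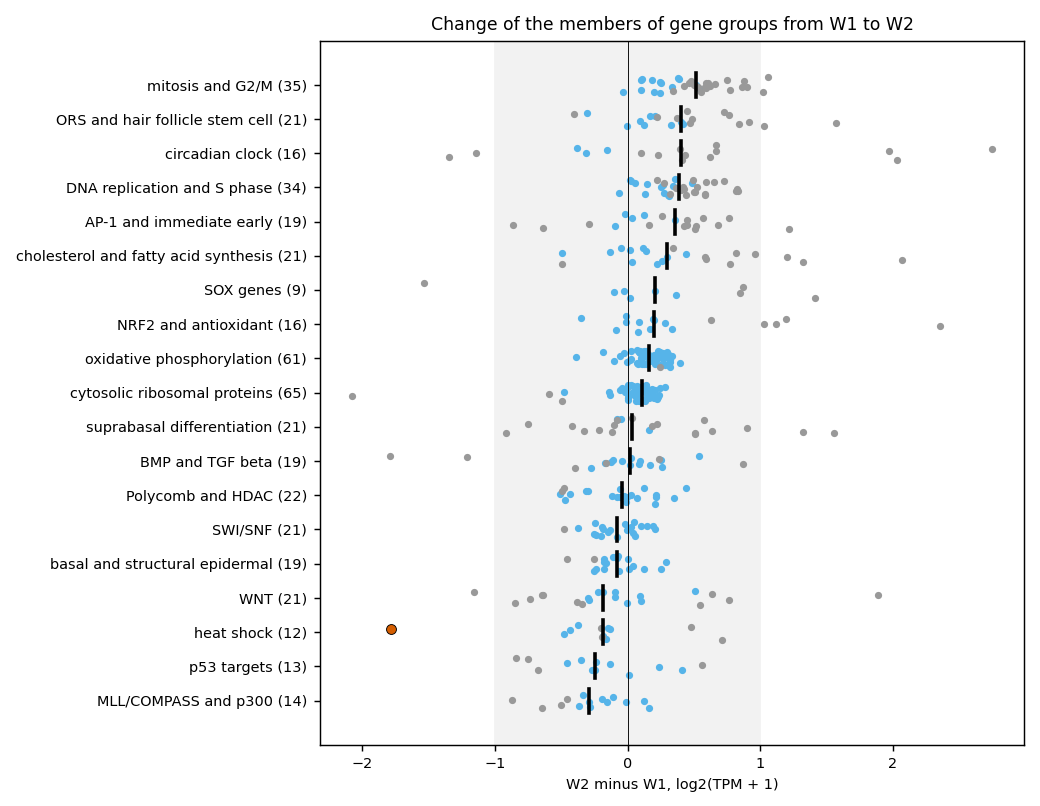
Each point is a gene of the group named at the left (number tested in brackets), placed by its W2 minus W1 difference on the log2(TPM + 1) scale, with a black bar at the group's median and a grey band within 2-fold of no change. Blue points are steady, grey points are not, and Hsph1 in the heat-shock group (orange) is the only point past the threshold. The median is highest for mitosis and G2/M at 0.51, and the points of oxidative phosphorylation and ribosomal proteins crowd just above 0, with medians of 0.16 and 0.11.

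Of 19 basal and structural epidermal genes, 17 were steady, against 70.9% of all genes, and none had an unadjusted P under 0.05. Within that margin 6 had a fitted change above 0, against 45.9% of all genes, and the group summed to 50826 and 51087 TPM at W1 and 45507 and 47148 TPM at W2. Krt14 was at 20730.5 and 21849 TPM at W1 and 19997 and 22823 TPM at W2 (change 0.01, 95% interval −0.44 to 0.45), and Krt5 at 12307 and 12354 TPM and 10396 and 10548 TPM (95% interval −0.62 to 0.15). Krt15 was at 10002 and 9055 TPM at W1 and 7757 and 6166 TPM at W2, with an interval of −1.46 to 0.54 that was too wide to call it steady. Of the markers used in the sort, Itga6 was steady, and Ly6a, the Ly6A antigen whose high level gated the cells, was at 659.6 and 532 TPM at W1 and 293 and 268 TPM at W2 (change −1.08 ± 0.23; limma, adjusted P = 0.104). Differentiation genes gave less precise values: of 21 suprabasal genes only 3 were steady, with Krt10 at 792 and 1349.5 TPM at W1 and 786 and 1010.0 TPM at W2. Flg, which encodes filaggrin, and Dsc1, a desmosomal cadherin, had an unadjusted P under 0.05 and changes of 1.56 and 1.32, with both W2 libraries above both W1 libraries. Of 17 epidermal transcription factors, 12 were steady, and Ovol1 and Zfp750, regulators of keratinocyte differentiation, had an unadjusted P under 0.05 and changes of −0.93 and −0.70.

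Among the 10 most abundant transcripts of the W1 and W2 libraries, 5 were steady: Krt14, Krt5, Ly6d and the entries Gm28437 and Gm10925. Apoe, the most abundant of all, was at 26613 and 22578 TPM at W1 and 34799 and 36951 TPM at W2 (limma, adjusted P = 0.367). Ccl27a, a chemokine of keratinocytes, and its near copy Gm13306 had changes of −0.54 and −0.52 with intervals too wide to bound. Krt15 and the unnamed entry ENSMUSG00000106106.2 complete the 10, with changes of −0.46 and −0.40.

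Some of the steady genes stood away from D0 in the mean of W1 and W2. The mean of W1 and W2 differed from D0 in 2141 genes (16.3%), higher in 9.74% of all genes and lower in 6.59%, and 1319 of these (61.6%, against 70.9% of all genes) were steady between W1 and W2, 821 of them above D0 and 498 below. In 474 of the 1319 the difference from D0 was at least 1 on the log2 scale, and in the rest it was smaller than the margin of steadiness. This contrast does not use the W1 to W2 difference. Without D0 replicate 2, the library whose sex genes did not match its label, 944 genes were counted in place of 1319, without D0 replicate 1 1783, and without W1 replicate 1, W1 replicate 2, W2 replicate 1 or W2 replicate 2 the count was 548, 555, 503 or 451. In the genes named below both D0 libraries lay apart from all 4 W1 and W2 libraries.

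The largest early rises among the steady genes were Gm10320, Ccn2, 1700019D03Rik, Mfge8 and Kif26b. Ccn2, a secreted matricellular protein also known as CTGF, was at 7.27 and 15.3 TPM at D0, 248 and 307 TPM at W1 and 385 and 226 TPM at W2. Its W1 and W2 libraries overlapped and stood well above D0, with a mean rise of 4.62 (limma, adjusted P = 4.94e-05) and a 95% interval of −0.66 to 0.86 for W2 minus W1. Mfge8, a secreted protein that bridges apoptotic cells to phagocytes, went from 1.16 and 1.63 TPM at D0 to 36.3 and 39.9 TPM at W1 and 33.7 and 27.7 TPM at W2, and stayed at 39.4 and 40.5 TPM at W6. Kif26b, a kinesin family member, was at 0.581 and 1.09 TPM, 26 and 18.4 TPM and 21.8 and 19.9 TPM, and lower again at W6, at 7.70 and 4.16 TPM. Gm10320 was near 0 at D0, at 51.8 and 51.1 TPM at W1 and 48.6 and 50.7 TPM at W2, then near 0 again at W6 and at 23.8 and 39.3 TPM in the W12 grafts, and 39.8% of its windows occur in other genes, chiefly Sec61b. For 1700019D03Rik that share was 26.9%, with Tespa1, and for Ccn2 17.2%, with Gm15270.

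The largest early falls among the steady genes were Il12rb2, Ifrd1, Arl4d, Gabrp and Cdh4. Il12rb2, Gabrp and Cdh4 were under 1 TPM at W1 and W2, where log2(TPM + 1) can hardly move, so being steady says little of a held level there. Il12rb2, a subunit of the receptor for interleukin 12, went from 27 and 53.1 TPM at D0 to under 1 TPM in all 4 W1 and W2 libraries, and 38.0% of its windows occur in other genes, chiefly Serbp1. Ifrd1, a transcriptional co-regulator, was at 1242 and 1747 TPM at D0, 124 and 83.5 TPM at W1 and 123 and 80.4 TPM at W2, with a mean change of −3.86 (limma, adjusted P = 4.94e-05) and an interval of −0.66 to 0.59 between the weeks. Arl4d, a small GTPase of the ARF family, was at 58.7 and 51.5 TPM, 3.07 and 3.90 TPM and 2.65 and 2.40 TPM. Cdh4, the R-cadherin, and Gabrp, a subunit of the GABA-A receptor, were under 1 TPM in all W1 and W2 libraries after 13.9 and 24.2 and 8.68 and 17.5 TPM at D0.

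**Figure D5:**
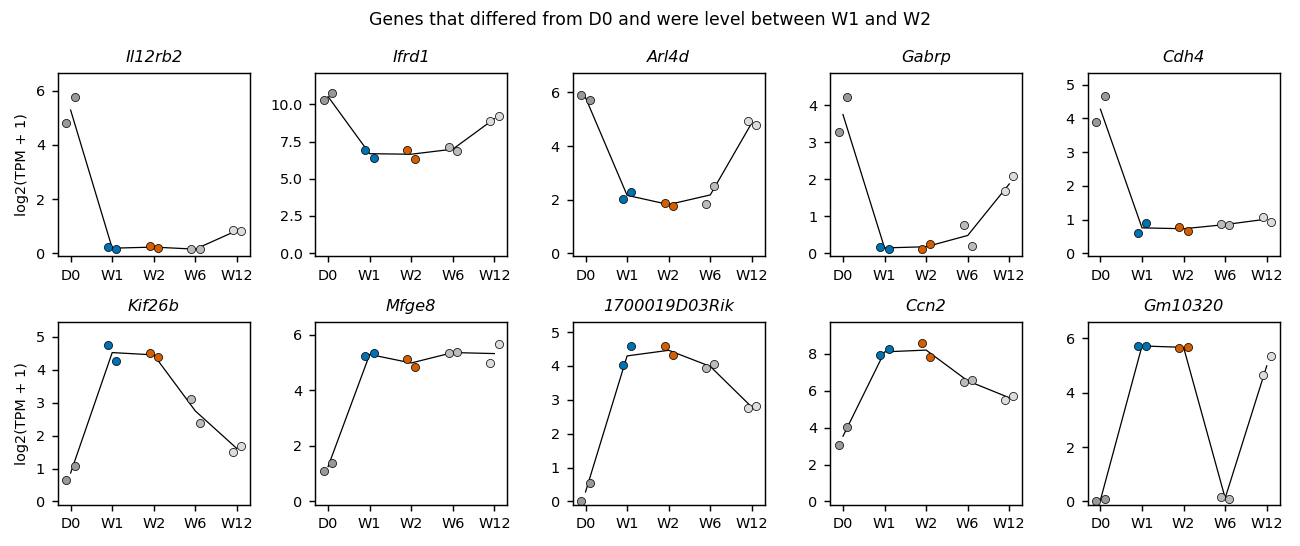
Levels of the 5 largest early falls (upper row) and 5 largest early rises (lower row) among genes that differed from D0 and were steady from W1 to W2, as log2(TPM + 1) in the 10 libraries with a scale of its own per panel. Points are libraries (2 per timepoint) and lines join the means. The W1 and W2 means lie within 2-fold of each other in each panel, away from D0. In Arl4d, Mfge8 and Gm10320 both W2 libraries still lie below both W1 libraries. The later timepoints part: Mfge8 and Cdh4 hold to W6 and W12, whereas Gm10320 is back near 0 at W6 but not at W12. Ifrd1 and Arl4d are partly back at D0 levels in the W12 grafts.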

How the data were processed

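RNA-seq was made from FACS-sorted EpdSCs, 2 biological replicates at each of 5 timepoints. Per the labels and the study's methods, the authors trimmed reads with Skewer, quantified transcripts with Salmon (version 1.4.0) against GENCODE transcripts of GRCm38 to which the transgene had been added, and summed them to genes with Tximport (version 1.12.3). The deposited values are TPM, which sum to 1000000 per library and carry no depth, so the depth and the counting error of each library are unknown. Per the labels a library ran on either NextSeq or NovaSeq, and which ran on which was not given in the sources used here. The authors' table for 4 placode libraries holds only their own comparison, with fold changes and P values, and was not used. Every TPM column was matched to a sample by its name.

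Genes averaging 1 TPM or more across the 10 libraries (13110) were analysed as log2(TPM + 1). A single model over all 10 libraries, a mean for each timepoint, was fitted in limma 3.58.1 (R 4.3.3), with eBayes and a variance trend, and P values were adjusted by Benjamini-Hochberg over all genes. This leaves 5 residual degrees of freedom. A gene was called at an adjusted P under 0.05 and steady where the 95% interval of W2 minus W1 lay within 1. Changes of genes near 1 TPM are understated on this scale. A count model could not be run on TPM. The labels do not say whether replicates came from separate litters or days, so P values measure the spread between these libraries.

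The text names every called gene, the 5 largest rises and falls below the threshold (unadjusted P under 0.05, libraries not overlapping), the 10 most abundant genes, the 5 largest early rises and falls that were steady, the transgene and Sox9, and of each gene group the most abundant members and any with an unadjusted P under 0.05. Some members of these groups are given by their count or are not reported here, and genes named as relatives, parents or neighbours of called genes (Tpm2, Tpm3, Tpm4, Adh5, Gstp1, Tuft1, Gm20186 and the parents of pseudogenes) were chosen after their values were seen. The comparison and the gene groups were chosen with earlier results of these data known. Gene positions and shared windows (50 bases, either strand) are from GENCODE release 21 on GRCm38, an earlier release than the authors' index. Closest coding genes were found with blastn 2.17.0, and 9 of the 15 called genes had a RefSeq promoter entry. Alternatives were another pseudocount, 2 other filters, 2 scalings, no variance trend, fewer libraries in the fit, a replicate block, each library left out, and other thresholds.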

Additional observations from a re-analysis of the deposited data

How the results depend on the processing

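No called gene changed direction under any refit. The number of called genes was less firm than their values. It was 7 with a pseudocount of 0.1, 6 with the 8 ungrafted libraries only, and 80 with the 4 W1 and W2 libraries only (43 higher and 37 lower, 0.610% of genes, 14 of the 15 among them). With all genes above 0 TPM it was 20, 13 of them higher, and 5 of the 15 were among these (Gm11966, Mfsd2a, Gm8399, Gm15264 and 5430421F17Rik). Leaving out 1 library gave 0 to 83 called genes. With 1 library removed from W1 or W2, so that the remaining one is assumed to vary like the other timepoints, the count was 0, 5, 0 and 0 (without W1 replicate 1, W1 replicate 2, W2 replicate 1 and W2 replicate 2). In the 3 of these limma fits with no called gene, 1425, 953 and 1008 genes had an unadjusted P under 0.05. The number was 75 without either D0 library, 56 and 83 without W6 replicates 1 and 2, and 6 without either W12 library, and all 15 remained without any 1 of the D0 or W6 libraries. The cause was not tested. Gm11966, Mfsd2a, Gm8399, Gphb5, Ndufs5-ps and Trim47 were the 6 kept with the 8 ungrafted libraries.

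The labels do not say what, if anything, same-numbered libraries of W1 and W2 share. Over genes, the deviations of same-numbered libraries correlated at 0.182, and with a replicate block 6 genes were called.

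The steady genes numbered 6742 to 9900 when 1 library was left out, 3144 when the interval had to lie within 1.5-fold, and 33657 when all genes with a mean TPM above 0 were tested, most of which are near 0 throughout. The genes shifted before W1 and steady numbered 451 to 1840 with 1 library left out, the low values coming without W1 or W2 libraries (548 and 555 without W1 replicates 1 and 2, 503 and 451 without W2 replicates 1 and 2), 406 within 1.5-fold and 733 with all genes above 0 TPM. With a pseudocount of 0.1 the steady genes numbered 7649, and in the fit of the 4 W1 and W2 libraries alone 10692. The median change of all genes was −0.03, −0.02 with quantile normalization and nearer 0 with median-ratio scaling, and the medians of the groups named kept their direction under it, except for 3 medians near 0: suprabasal differentiation under quantile normalization (−0.01, against 0.03), and under median-ratio scaling hair bud and placode (0.03, against −0.01) and the sorting markers (0.01, against −0.01).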

Other observations

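In the fit of the 4 W1 and W2 libraries alone, 80 genes passed the threshold. The genes below are named from these 80, or beside them, after their values were seen, and none passed the threshold over all 10 libraries. Lpl, lipoprotein lipase, was at 2.16 and 1.99 TPM at W1 and 9.80 and 9.57 TPM at W2. Pltp, the phospholipid transfer protein, was at 12 and 11.3 TPM and 37.7 and 33.7 TPM, and Pla2g7, a secreted phospholipase, at 2.76 and 3.58 TPM and 12.3 and 14 TPM, followed by 117 and 65.1 TPM at W6. The glutathione S-transferases Gstm1 and Gstm2 were at 171 and 139.9 and at 155 and 133 TPM at W1, and at 366 and 344 and at 323 and 299 TPM at W2.

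Stra6, the cell-surface receptor that takes up retinol, was at 0.941 and 0.491 TPM at W1 and 6.82 and 7.30 TPM at W2, and passed the threshold with 4 libraries only. The retinaldehyde dehydrogenase Aldh1a3 was under 1 TPM in all 4 libraries, Rdh10 was steady (−0.27), and Dhrs3 had a change of −0.54 (adjusted P = 0.263).

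Among the genes lower at W2 in that fit were Skint7, a member of the Skint family that epidermal γδ T cells depend on, at 31.4 and 28.1 TPM at W1 and 5.18 and 4.01 TPM at W2, and Skint8, at 52.6 and 57.8 TPM and 23.2 and 21.6 TPM. Serpinb2, a serpin of stressed keratinocytes, was at 1474 and 2673 TPM at D0, 779 and 681 TPM at W1 and 238 and 238 TPM at W2, and Thy1 was at 6.17 and 7.67 TPM at W1 and 0.350 and 0.821 TPM at W2. Cirbp and Rbm3, which encode cold-inducible RNA-binding proteins, were not among the 80. The W2 libraries lay above the W1 libraries in both, with Cirbp at 137 and 94.4 TPM and 348 and 329 TPM and Rbm3 at 352 and 295 TPM and 578 and 602 TPM (limma over all libraries, adjusted P = 0.0665 and 0.102).

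Pseudogenes were 15% of the 466 genes with a fitted change of at least 1 on the log2 scale, 2.74% of the steady genes and 4.06% of all genes tested.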
